A study of Mus musculus with 3 samples.

Results

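Fibrinogen and the clotting and fibrinolysis factors that the liver makes were followed as a set of 10 genes: the fibrinogen chains Fga, Fgb and Fgg, prothrombin (F2), the factors F5, F7, F9 and F10, protein C (Proc) and plasminogen (Plg). The genes were taken from a fixed list of names, and every probe whose RefSeq accession maps to one of them was used. All 10 were found, with 14 probes, among 20546 genes that could be named on the array. Fga, F5, F7 and F10 have a pair of probes each, and the other 6 genes have 1.

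RNA was measured in 3 groups of female mice on single-colour Agilent arrays, with 1 array per group. The SiO2-3TF-3C spleen was given SiO2 (silica) and 3TF-3C, a name that the labels do not spell out, and was collected on day 82. The liver is normal mouse tissue, used by the study as a positive control. The SiO2 spleen received SiO2 and not 3TF-3C, was also collected on day 82, and is the control of the study's comparison. Strain, age and genotype are not given in the labels. By the series design, each group is a pool of 5 samples, and whether that holds for liver is unclear. Each spleen value is therefore that of a pool on 1 array, and no group has a replicate. No test between groups was possible, and differences were described by a rule of size, at least 2-fold. With so few arrays, the precision of every value is limited.

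Clotting ends when thrombin, the active form of prothrombin, cuts fibrinogen so that it polymerises into fibrin. Fibrinogen is assembled in hepatocytes, the main cells of the liver, from pairs of its alpha, beta and gamma chains, encoded by Fga, Fgb and Fgg. Prothrombin and factors VII, IX and X, like protein C, need vitamin K for their final modification and are secreted by the same cells. Plasminogen is the precursor of plasmin, the enzyme that dissolves fibrin. The spleen filters blood and stores platelets.

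The 3 fibrinogen genes lie side by side on mouse chromosome 3, and the starts of 6 of the 10 genes are printed here because they carry the contrast described below, with F2, Fgg and Fgb nearest to their liver levels among the 9 genes below liver, Fga furthest below its liver level, and F7 and F9 little different between the spleens by their brightest probe. The sequences are RefSeq's for GRCm38.p6, each with 250 bases before and 50 after the annotated start, 5′ to 3′ on the strand of the gene. Of the 10 genes, 8 were matched to this set (Proc and Plg were not). Capitals mark matches, on either strand, to the HNF4 motif CAAAGNNCA, the C/EBP motif TTGCNNAA and the interleukin-6 response element CTGGGA, where N is any base.
Fga (chr3:83025903-83026202, plus strand): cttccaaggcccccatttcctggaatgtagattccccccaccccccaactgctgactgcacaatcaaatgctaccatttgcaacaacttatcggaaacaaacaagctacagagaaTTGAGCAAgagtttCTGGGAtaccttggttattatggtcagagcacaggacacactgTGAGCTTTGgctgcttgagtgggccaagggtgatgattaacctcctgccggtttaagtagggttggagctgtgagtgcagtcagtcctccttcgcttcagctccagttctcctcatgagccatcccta
Fgb (chr3:83049814-83050113, minus strand): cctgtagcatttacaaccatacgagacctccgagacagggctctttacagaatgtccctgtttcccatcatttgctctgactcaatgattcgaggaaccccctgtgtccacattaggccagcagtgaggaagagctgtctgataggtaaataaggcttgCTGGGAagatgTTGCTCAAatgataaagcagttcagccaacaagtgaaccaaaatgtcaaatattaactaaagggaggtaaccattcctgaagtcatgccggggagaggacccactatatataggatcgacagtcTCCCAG
Fgg (chr3:83007474-83007773, plus strand): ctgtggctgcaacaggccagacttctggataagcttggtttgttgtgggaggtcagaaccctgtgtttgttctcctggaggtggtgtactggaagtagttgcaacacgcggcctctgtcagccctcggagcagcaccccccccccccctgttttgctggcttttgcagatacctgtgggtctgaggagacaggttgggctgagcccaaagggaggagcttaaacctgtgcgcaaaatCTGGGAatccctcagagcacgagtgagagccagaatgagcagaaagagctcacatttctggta
F2 (chr2:91636408-91636707, minus strand): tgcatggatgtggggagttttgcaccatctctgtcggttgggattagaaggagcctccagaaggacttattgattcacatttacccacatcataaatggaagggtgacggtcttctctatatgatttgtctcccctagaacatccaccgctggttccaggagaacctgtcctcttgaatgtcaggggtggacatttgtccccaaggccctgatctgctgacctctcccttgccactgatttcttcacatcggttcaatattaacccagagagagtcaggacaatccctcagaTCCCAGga
F7 (chr8:13025784-13026083, plus strand): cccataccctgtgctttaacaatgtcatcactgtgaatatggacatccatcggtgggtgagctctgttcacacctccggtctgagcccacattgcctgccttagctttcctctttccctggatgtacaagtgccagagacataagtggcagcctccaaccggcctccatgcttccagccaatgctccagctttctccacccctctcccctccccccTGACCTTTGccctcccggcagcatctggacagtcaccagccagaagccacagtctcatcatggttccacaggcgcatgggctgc
F9 (chrX:59999214-59999513, plus strand): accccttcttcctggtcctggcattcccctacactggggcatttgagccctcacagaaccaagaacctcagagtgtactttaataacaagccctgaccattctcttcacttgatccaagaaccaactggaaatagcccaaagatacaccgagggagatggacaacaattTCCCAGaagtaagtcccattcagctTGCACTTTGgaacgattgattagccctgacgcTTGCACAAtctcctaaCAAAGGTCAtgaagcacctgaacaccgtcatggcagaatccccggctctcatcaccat

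HNF4 and C/EBP proteins are transcription factors of hepatocytes, and interleukin-6 drives the acute phase response. The HNF4 motif occurred in 3 of the 8 matched windows (Fga, F7 and F9) and in 6.37% of 27025 promoters of the same length, and the C/EBP motif in 3 (Fga, Fgb and F9) and in 10.8%. The interleukin-6 element was in 6 (Fga, Fgb, Fgg, F2, F9 and F10), and in 31.5% of all promoters. The TATA letters TATAAA were in 0 of 8 and in 14.2%. No 2 matches overlapped. The F5 window held none of the motifs. Fga and F9 hold all 3 marked motifs, and Fgg, F2 and F10 hold the interleukin-6 element alone. The F2 match lies after the annotated start, as does the second Fgb match to this element. A match is a description of the letters, not of binding.

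On the arrays, 81.3% of 43020 spots were well above background, as the scanner software tests it, for the SiO2-3TF-3C spleen, 77.2% for liver and 79.9% for the SiO2 spleen, and none was saturated. Intensities below are the deposited processed signals, and differences were taken after scaling each array by its 75th percentile, an intensity of 514.7 for the SiO2-3TF-3C spleen, 389.8 for liver and 568.7 for the SiO2 spleen. Errors after ±, called technical errors, combine the scanner software's signal errors of both arrays, or of all 3 arrays for percentage shares. They leave out the spread between animals and the choice of background correction. For bright signals of the clotting probes the software's error was the same on every array, 0.144 on the log2 scale. Each of these probes has 1 spot, so technical errors here are not a spread measured over repeated spots. The hepatocyte markers fixed for the check (Alb, Ttr, Apoa1 and 9 others) all stood 2-fold or more above the SiO2 spleen in the SiO2-3TF-3C spleen. Their summed scaled intensity was 240.5 in the SiO2-3TF-3C spleen, 608.4 in liver and 1.53 in the SiO2 spleen, where Ttr, Apoa1 and Serpina3k were not well above background. The liver array also carried signal of genes that mark other tissues. B cell markers summed to 94.2 in the SiO2-3TF-3C spleen, 55.7 in liver and 136.9 in the SiO2 spleen, and the spleen organ regulators Tlx1, Nkx2-3 and Nkx2-5 passed the background test on that of liver. All 8 erythroid markers also exceeded 2-fold in the SiO2-3TF-3C spleen, with a summed scaled intensity of 33.9 in the SiO2-3TF-3C spleen and 10.2 in the SiO2 spleen. Of 5 Kupffer cell markers 2 passed 2-fold upwards in the SiO2-3TF-3C spleen. Clec4f had an intensity of 733.0 in the SiO2-3TF-3C spleen, 4005 in liver and 9.55 in the SiO2 spleen. Vsig4 had 375.7, 2120 and 24.0 in the same order. The log2 differences between the spleens were 6.41 for Clec4f and 4.11 for Vsig4, while Timd4, Cd5l and Folr2 stayed within 2-fold. Of 17640 genes measured between the spleens, 5.24% passed 2-fold upwards. Among other markers, 0 of 10 endothelial, 0 of 9 measured macrophage, 0 of 8 B cell and 0 of 8 T cell genes did so. Those counts of 0 are near the all-gene share. The part of these marker shifts in the results below was not tested. In such bulk RNA, fewer cells of a type and less RNA per cell cannot be told apart.

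Most of the clotting genes stood far above the SiO2 spleen in the SiO2-3TF-3C spleen. Of the 10 genes, 7 were higher by 2-fold or more, 0 were lower by that much and 3 (F7, F9 and F10) fell between these limits, with each gene read from its brightest probe. Over all 17640 genes measured in this comparison, 5.24% were at least 2-fold higher and 1.39% at least 2-fold lower. The median log2 difference was 6.82 for the 10 genes and -0.15 for all genes measured. The 3 fibrinogen genes, F2, Proc and Plg differed by 6.69 or more on the log2 scale, and F5 by 2.12. F10 depends on the probe, as given below. Among the 14 probes, 13 were brightest in liver, intermediate in the SiO2-3TF-3C spleen and dimmest in the SiO2 spleen.

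**Figure D1:**
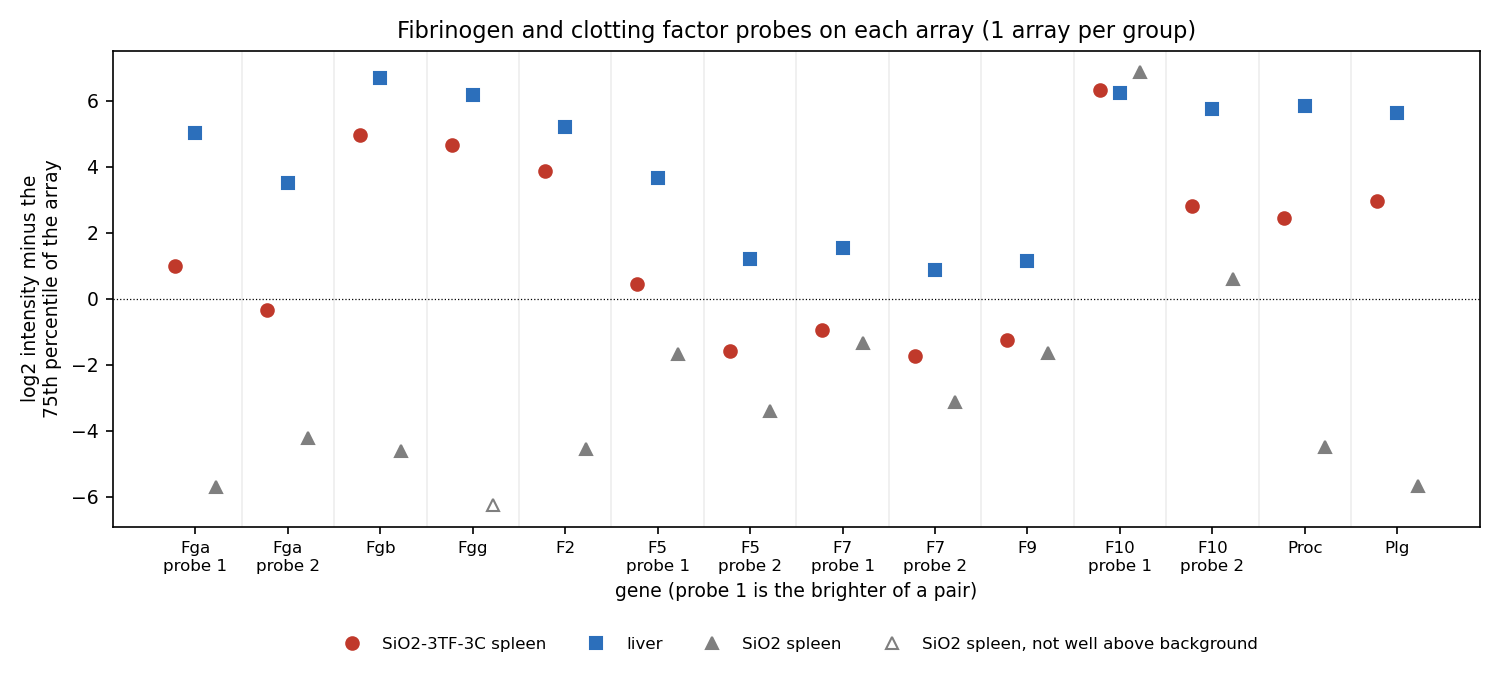
Scaled log2 intensity (log2 intensity minus the array's 75th percentile, vertical axis) of the 14 probes on the 3 arrays, with 1 symbol per array and no replicates. Red circles (SiO2-3TF-3C spleen) lie between blue squares (liver) and grey triangles (SiO2 spleen) for 13 probes. The exception is the brightest F10 probe, and the open triangle marks Fgg, whose SiO2 spleen signal was not well above background.

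Among the fibrinogen chains, Fgb had an intensity of 15892 in the SiO2-3TF-3C spleen, 39912 in liver and 23.0 in the SiO2 spleen. Between the spleens the ratio was 762-fold, a log2 difference of 9.57 ± 0.25. The SiO2-3TF-3C spleen was below liver by a log2 difference of -1.73 ± 0.20, so that its scaled intensity was 30.2% of the liver value. On the log2 scale the beta chain thus lay closer to liver than to the SiO2 spleen, but on the linear scale closer to the SiO2 spleen. Fgg, F2, Proc, Plg and the brighter Fga probe also lay closer to liver on the log2 scale.

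Fgg, the gamma chain, had an intensity of 12908 in the SiO2-3TF-3C spleen, 28357 in liver and 7.43 in the SiO2 spleen, the last not well above background. The SiO2-3TF-3C spleen was at least 1652-fold higher than the SiO2 spleen. In such a bound the dim array enters with its own signal or, where that is lower, with the faintest signal that passed its background test. Liver was at least 4792-fold higher than the SiO2 spleen. Both bounds hold only for the background subtraction used here. With another background correction (normexp, described below) the bound between the spleens fell from a log2 difference of 10.69 to 7.80. That of liver fell from 12.23 to 9.24. For this chain the SiO2-3TF-3C spleen reached 34.5% of liver in scaled intensity, a log2 difference of -1.54 ± 0.20.

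Fga, the alpha chain, was further below liver than the other chains. Its brighter probe had an intensity of 1026 in the SiO2-3TF-3C spleen, 12567 in liver and 10.97 in the SiO2 spleen. The log2 difference was 6.69 ± 0.31 against the SiO2 spleen and -4.02 ± 0.20 against liver. The second Fga probe had 402.7 in the SiO2-3TF-3C spleen, 4421 in liver and 30.4 in the SiO2 spleen. Both probes placed the SiO2-3TF-3C spleen at a like share of the scaled intensity of liver, 6.18% by the brighter probe and 6.90% by the other. They differed in the distance to the SiO2 spleen, where the second probe gave a log2 difference of 3.87 ± 0.23.

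Prothrombin was the member closest to liver among those that were higher in both tissues. F2 had an intensity of 7519 in the SiO2-3TF-3C spleen, 14386 in liver and 24.4 in the SiO2 spleen. Between the spleens, the SiO2-3TF-3C spleen exceeded the SiO2 spleen 340-fold (log2 difference 8.41 ± 0.23). Against liver the log2 difference was -1.34 ± 0.20, so that the scaled intensity was 39.6% of that in liver.

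F5 encodes factor V, the cofactor of the enzyme complex that activates prothrombin. Its brighter probe had an intensity of 700.9 in the SiO2-3TF-3C spleen, 4944 in liver and 178.0 in the SiO2 spleen. Signal in the SiO2-3TF-3C spleen was 4.35-fold above the SiO2 spleen by this probe (log2 difference 2.12 ± 0.20). The second F5 probe read 172.1 in the SiO2-3TF-3C spleen, 896.9 in liver and 53.9 in the SiO2 spleen, with a log2 difference of 1.82 ± 0.21 between the spleens. Both probes were well above background in the SiO2 spleen.

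F7 encodes factor VII, which starts clotting together with tissue factor. By its brighter probe F7 had an intensity of 267.9 in the SiO2-3TF-3C spleen, 1122 in liver and 224.7 in the SiO2 spleen. The log2 difference between the spleens was 0.40 ± 0.20, less than 2 technical errors, and liver stood 2.87 ± 0.20 above the SiO2 spleen. The second probe read 153.6 in the SiO2-3TF-3C spleen, 711.0 in liver and 64.5 in the SiO2 spleen. It put the SiO2-3TF-3C spleen 2.63-fold above the SiO2 spleen (log2 difference 1.40 ± 0.21). The F7 probes therefore fell on different sides of 2-fold between the spleens, while both were below liver by a log2 difference of -2.47 or lower.

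F9, the factor missing in haemophilia B, had an intensity of 214.0 in the SiO2-3TF-3C spleen, 861.2 in liver and 182.0 in the SiO2 spleen. The spleens differed by 0.38 ± 0.20 on the log2 scale, less than 2 technical errors. Liver was 6.90-fold above the SiO2 spleen, the smallest liver difference among the genes apart from F10.

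F10 encodes factor X, whose active form cuts prothrombin, and its 2 probes gave opposite pictures. The brighter probe (A_55_P2172934) had an intensity of 40919 in the SiO2-3TF-3C spleen, 29231 in liver and 65952 in the SiO2 spleen. Only 72 of 39112 probes were brighter in the SiO2-3TF-3C spleen, 165 in liver and 27 in the SiO2 spleen. The log2 difference was -0.55 ± 0.20 against the SiO2 spleen and 0.08 ± 0.20 against liver. The other probe (A_51_P174961) read 3613 in the SiO2-3TF-3C spleen, 20980 in liver and 865.5 in the SiO2 spleen. By that probe the SiO2-3TF-3C spleen was 4.61-fold above the SiO2 spleen (log2 difference 2.21 ± 0.20) and below liver by a log2 difference of -2.94 ± 0.20. The probes carry different RefSeq transcripts of the gene. A pair of probes of which one was at least 2-fold higher and another below 0 between the spleens occurred in 60 of 4546 genes with several probes (1.32%). With the other F10 probe in place of the brightest, a choice made after its values were seen, 8 of 10 genes were at least 2-fold higher between the spleens.

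Proc encodes protein C, which shuts clotting down by cutting factors V and VIII. It had an intensity of 2825 in the SiO2-3TF-3C spleen, 22171 in liver and 25.3 in the SiO2 spleen. For this gene the SiO2-3TF-3C spleen exceeded the SiO2 spleen 123-fold (log2 difference 6.95 ± 0.23) and reached 9.65% of the scaled intensity of liver.

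Plg, plasminogen, had an intensity of 4035 in the SiO2-3TF-3C spleen, 19217 in liver and 11.1 in the SiO2 spleen. Signal in the SiO2-3TF-3C spleen was 401-fold that of the SiO2 spleen (log2 difference 8.65 ± 0.31). Against liver the log2 difference was -2.65 ± 0.20, so that the scaled intensity was 15.9% of that in liver.

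**Figure D2:**
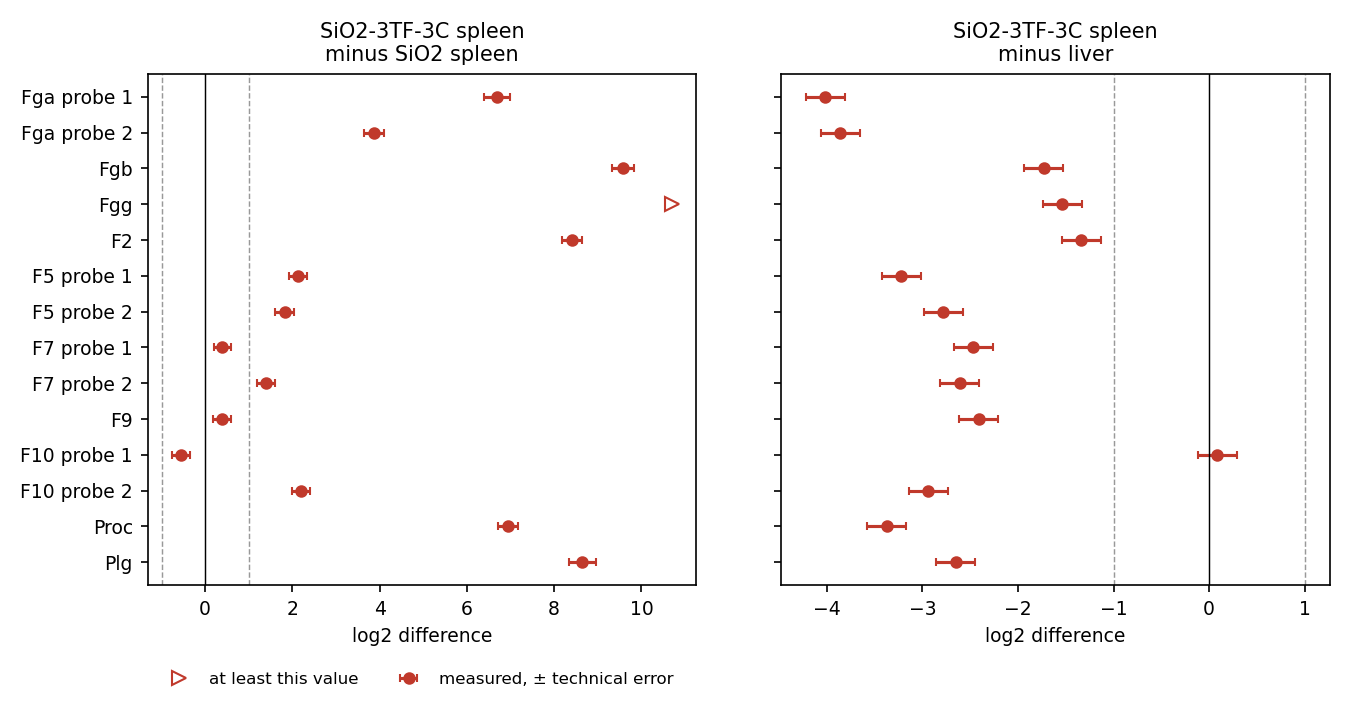
Log2 differences of the 14 probes between the SiO2-3TF-3C spleen and the SiO2 spleen (left) and between the SiO2-3TF-3C spleen and liver (right), with bars for the technical error and dashed lines at 2-fold. The open triangle is the bound for Fgg. On the right, 13 probes lie below the lower dashed line and the brightest F10 probe lies at 0.08.

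Set against liver, the SiO2-3TF-3C spleen had less of nearly all of these messages. Of the 10 genes, 9 were at least 2-fold lower, 0 at least 2-fold higher, and F10 by its brightest probe lay in between, while 15.9% of 17213 genes measured were at least 2-fold lower and 10.7% at least 2-fold higher. The median log2 difference was -2.44 for the 10 genes and -0.03 for all genes measured. With the other F10 probe, all 10 were at least 2-fold lower than liver. Among the 9, the smallest shortfall was that of F2 and the largest that of Fga. Between liver and the SiO2 spleen, 9 of the 10 genes passed 2-fold upwards in liver, as did 15.4% of 17359 genes measured, and F10 by its brightest probe lay in between. In that comparison 17% of genes measured and 0 of the 10 were at least 2-fold lower, and the median log2 difference was 10.03 for the 10 genes and -0.14 for all genes measured. Both differences over the SiO2 spleen share that array.

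Where each gene lay between the SiO2 spleen and liver was expressed as the excess of the SiO2-3TF-3C spleen over the SiO2 spleen, as a percentage of the excess of liver over the SiO2 spleen, on scaled linear intensity. This share differed widely within the set. F2 had 39.5 ± 5.60%, Fgg 34.5 ± 4.88% and Fgb 30.1 ± 4.26%, followed by Plg with 15.9 ± 2.25%. Proc had 9.58 ± 1.36%, F5 8.48 ± 1.42% and the dimmer F10 probe 10.5 ± 1.74%. Fga had 6.13 ± 0.87%, F9 5.06 ± 2.80% and F7 5.05 ± 2.65%. The second probes of Fga, F5 and F7 gave 6.46 ± 0.95%, 10.9 ± 1.94% and 10.8 ± 2.19%. The values of F2, Fgg and Fgb overlapped within their technical errors, and so did those of Fga, F9 and F7. The share of the alpha chain of fibrinogen was thus below those of the beta and gamma chains by either of its probes. The gap exceeded the technical errors, which are not a measured spread between repeats.

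For comparison, 1094 genes exceeded the SiO2 spleen 4-fold or more in liver and were well above background on all 3 arrays. Their median share was 8.37%, with quartiles of 5.44% and 11.5%. Of these genes, 2.56% had a higher share than F2, 3.38% a higher share than Fgg and 4.11% a higher share than Fgb. Fgg itself fails the background filter in the SiO2 spleen, and liver genes as dim there as Fgg are missing from this comparison. Plg was exceeded by 11.8% of them, Proc by 37.8%, Fga by 69.5%, F9 by 78.4% and F7 by 78.6%. The share was larger among genes bright in liver: its median was 10.9% in the 260 genes with a scaled log2 level of 4 or more in liver, a range that holds the liver levels of Fga, Fgb, Fgg, F2, Proc and Plg, and 6.98% in the 257 genes with a level under 0. The quartiles of those 260 genes were 8.38% and 16.0%, so that Fgb, Fgg and F2 lay above the upper quartile and Fga below the lower one. Of the 12 hepatocyte markers, 9 passed the same filter. The share was 87.9% for Alb (albumin), 59.6% for Ahsg and 57.3% for Serpina1a. It was 17.6% for Cps1, 13.9% for Pck1, 12.1% for Cyp2e1, 10.9% for Hnf4a, 8.67% for Tat and 5.34% for Apob. Fga therefore stood near Apob, the core protein of lipoprotein particles, and F2, Fgg and Fgb lay between Serpina1a and Cps1 (17.6%). Over the alternative ways of processing, the share ranged over 39.5 to 49.1% for F2, 34.5 to 43.0% for Fgg and 30.1 to 39.1% for Fgb. It ranged over 5.68 to 7.12% for Fga, 4.76 to 8.77% for F7 and 4.71 to 8.24% for F9, so that the order of these genes among themselves changed with the processing.

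**Figure D3:**
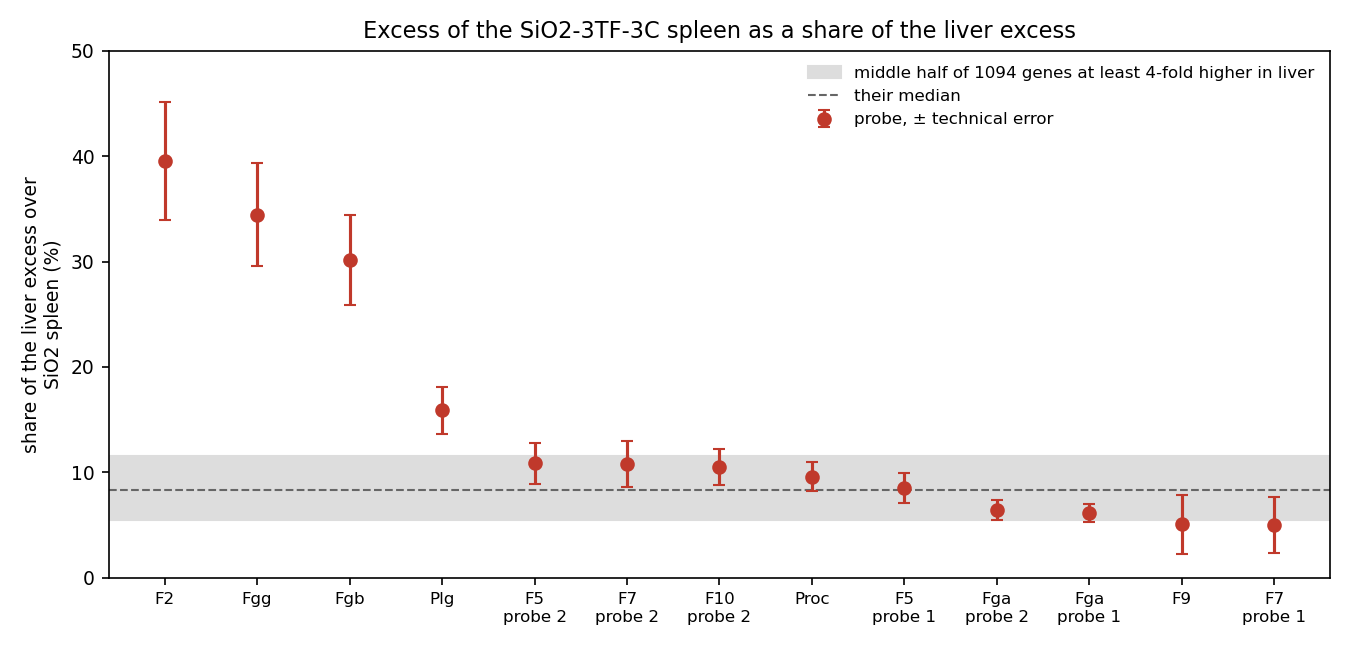
Excess of the SiO2-3TF-3C spleen over the SiO2 spleen as a percentage of the liver excess (vertical axis) for 13 probes, in falling order, with bars for the technical error. The grey band spans the quartiles (5.44% to 11.5%) and the dashed line the median (8.37%) of 1094 genes at least 4-fold higher in liver. F2, Fgg, Fgb and Plg lie above the band. Fga lies in its lower part, and F7 by its brighter probe and F9 lie just under it.

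The remaining clotting factors are the first of 8 lists of related genes. Of 9 contact and other coagulation factors, 5 passed 2-fold upwards in the SiO2-3TF-3C spleen relative to the SiO2 spleen, 0 passed it downwards and 4 did neither. Over all genes measured, 5.24% passed 2-fold upwards and 1.39% downwards. The median log2 difference of the 9 was 2.62. Kng1, the kininogen of the contact system, differed by 9.84 ± 0.30, and F12, which starts that system, by 6.16 ± 0.29. F11, its next enzyme, differed by 5.30 ± 0.35, and F13b, the carrier subunit of the fibrin cross-linking factor XIII, was at least 79.8-fold higher. These named genes were below liver by log2 differences of -1.52 (Kng1) to -3.62 (F12).

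Of 9 anticoagulant genes, 4 passed 2-fold upwards in the SiO2-3TF-3C spleen, 0 downwards and 5 neither. The all-gene shares were 5.24% upwards and 1.39% downwards, and the median log2 difference of the 9 was 0.45. The 4 were plasma serpins and protein Z. Serpinc1, antithrombin, the main inhibitor of thrombin, differed by 7.23 ± 0.21, and Serpind1, heparin cofactor II, was at least 320-fold higher. Serpina10, the partner of protein Z, differed by 3.51 ± 0.21, and Proz, protein Z itself, was at least 8.60-fold higher. Serpinc1 was the closest of the named 4 to liver, at a log2 difference of -1.35 ± 0.20.

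In fibrinolysis, 2 of 7 measured genes passed 2-fold upwards in the SiO2-3TF-3C spleen, 0 downwards and 5 neither (median 0.34). Beside them stand 5.24% of all genes upwards and 1.39% downwards. Hrg, a plasma protein that binds plasminogen, differed by 5.23 ± 0.21, and Cpb2, which protects fibrin from plasmin, by 2.82 ± 0.20. The plasminogen activator Plat differed by 0.65 ± 0.22. Serpinf2, the plasmin inhibitor, was not measured.

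Genes that finish clotting factors inside the cell were counted next. Of 9 genes of the vitamin K cycle and factor maturation, 1 passed 2-fold upwards in the SiO2-3TF-3C spleen, 0 downwards and 8 neither (median 0.41), beside 5.24% of all genes upwards and 1.39% downwards. In liver 6 of the 9 passed 2-fold upwards over the SiO2 spleen (median 1.75), beside 15.4% of all genes. Ggcx, the carboxylase that uses vitamin K, had an intensity of 115.5 in the SiO2-3TF-3C spleen, 572.6 in liver and 80.2 in the SiO2 spleen, so the SiO2-3TF-3C spleen stood 0.67 ± 0.21 above the SiO2 spleen and liver 3.38 ± 0.21. Vkorc1, which recycles the vitamin and is the target of warfarin, stood 0.61 ± 0.20 above the SiO2 spleen in the SiO2-3TF-3C spleen and 2.75 ± 0.20 in liver. Nqo1, a quinone reductase, differed by 1.05 ± 0.21 between the spleens, just past 2-fold, and Tpst1, a sulphotransferase, by -0.62 ± 0.20.

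Of 8 measured receptor genes for thrombin and fibrin, 0 passed 2-fold upwards and 0 downwards between the spleens (median -0.09), a count near the all-gene shares of 5.24% and 1.39%. F2r, the main thrombin receptor gene of this family, differed by -0.22 ± 0.20, and the platelet integrin genes Itgb3 and Itga2b by -0.17 ± 0.20 and 0.28 ± 0.21. Itgax, an integrin of myeloid cells, differed by -0.50 ± 0.20, and F2rl1 was not well above background on any array. The 10 megakaryocyte and platelet markers were also within 2-fold, with a summed scaled intensity of 27.2 in the SiO2-3TF-3C spleen, 11.6 in liver and 28.9 in the SiO2 spleen.

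Vitamin K dependent proteins outside the liver factors had 2 of 5 measured genes past 2-fold upwards in the SiO2-3TF-3C spleen and 0 downwards (median 0.23). The shares over all genes were 5.24% upwards and 1.39% downwards. Prrg2 differed by 1.12 ± 0.20, and Prrg4 was at least 2.10-fold higher. Gas6, a ligand of TAM receptors, differed by -0.32 ± 0.20, Prrg1 by -0.25 ± 0.21, and Bglap had no named probe. Of 4 measured genes related to fibrinogen by sequence, Fgl1, made by hepatocytes, differed by 6.94 ± 0.22. Fgl2, made by immune cells, differed by -0.13 ± 0.20 and Angptl4 by -0.47 ± 0.20. In this list 2 passed 2-fold upwards, 0 downwards and 2 neither (median 2.30), beside the same all-gene shares. Fibcd1 and Tnc were not well above background on any array.

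Among 12 regulators of liver clotting genes, 6 passed 2-fold upwards in the SiO2-3TF-3C spleen, 0 downwards and 6 neither (median 1.53). Of all genes measured, 5.24% passed upwards and 1.39% downwards. Hnf4a, the nuclear receptor that maintains hepatocytes, had an intensity of 2889 in the SiO2-3TF-3C spleen, 19971 in liver and 9.67 in the SiO2 spleen. It differed by 8.37 ± 0.35 between the spleens. Nr1h4, the bile acid receptor, differed by 4.48 ± 0.31. Foxa2, a pioneer factor of liver genes, gave no SiO2 spleen signal well above background, and the SiO2-3TF-3C spleen exceeded that array at least 17.4-fold. Against liver 7 of the 12 were at least 2-fold lower, with a median of -2.96, beside 15.9% of all genes measured.

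**Figure D4:**
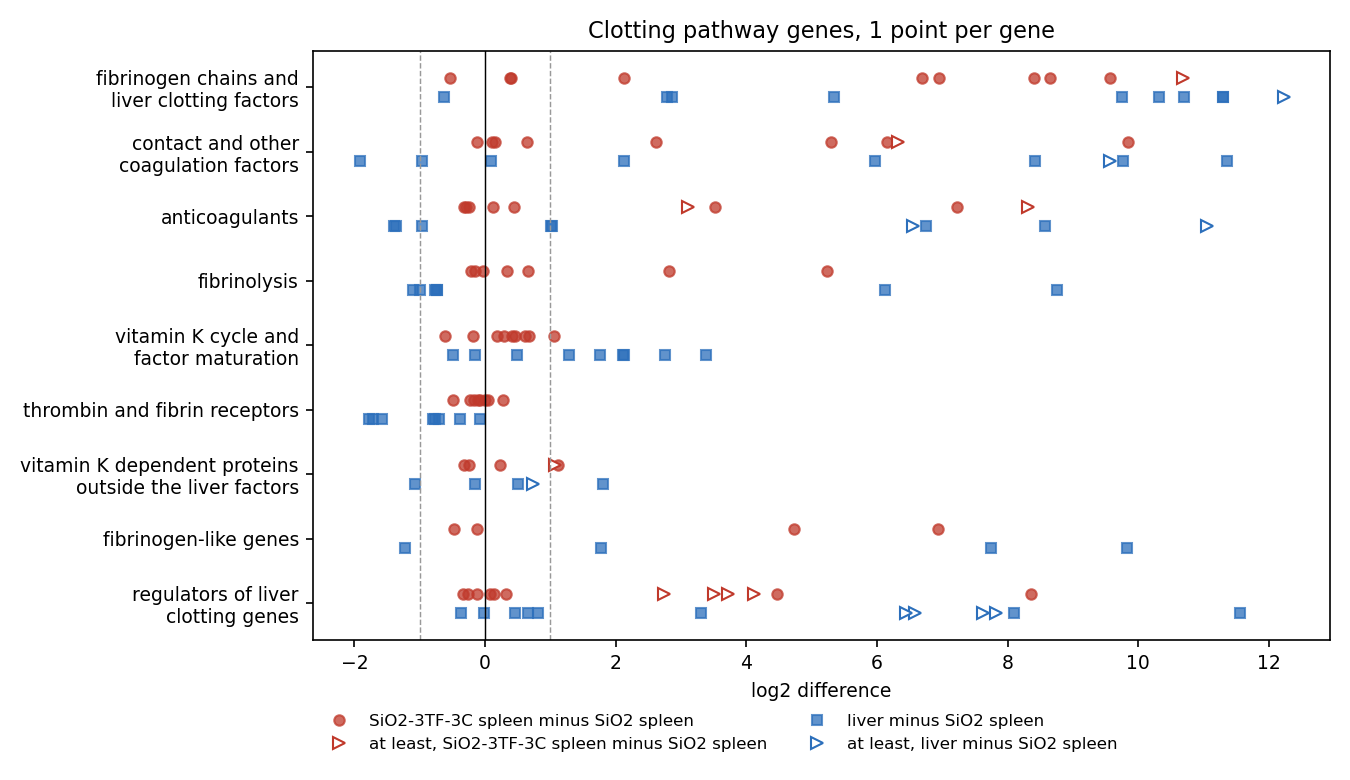
Log2 differences of the 10 genes and of 8 lists of related genes, with 1 point per gene. Red circles give the SiO2-3TF-3C spleen minus the SiO2 spleen, blue squares liver minus the SiO2 spleen, open triangles are bounds and dashed lines mark 2-fold. Receptor genes stay between the dashed lines in the SiO2-3TF-3C spleen, and the vitamin K cycle has 1 gene past the line there against 6 in liver.

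The genes beside the fibrinogen block and beside F7 and F10, by the gene order of GRCm38.p6, were looked at after values were seen. Next to the fibrinogen block on chromosome 3, Lrat differed by -0.05 and Plrg1 by -0.18 between the SiO2-3TF-3C spleen and the SiO2 spleen. The 3 chains between them differed by 6.69 or more by their brightest probes, and Fga by 3.87 by its second probe. On chromosome 8, where F7, F10 and Proz follow each other, the genes on either side of these, Mcf2l and Pcid2, differed by -0.08 and -0.09.

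The 6 genes whose pattern over the 3 arrays lay nearest to that of Fgb, among 16078 genes well above background on all 3, were Ambp, Kng1, Mup3, Ces3a, Apoh and Cyp2f2. Likeness was the distance between scaled log2 levels centred on each gene's mean, and ranged over 0.13 for Ambp to 0.43 for Cyp2f2. With only 3 arrays such likeness rests on the position of the SiO2-3TF-3C spleen between the other arrays. The authors' deposited table lists 6 of the 14 probes, for 5 of the genes. Its values of Fga, Fgb, F5 (brighter probe), F9 and F10 (brighter probe) differed between the SiO2-3TF-3C spleen and the SiO2 spleen by 6.69, 9.75, 2.11, 0.34 and -0.41 on the log2 scale. In the authors' deposited table the SiO2-3TF-3C spleen differed from liver by -3.81 for Fga and -1.35 for Fgb, so that the alpha chain was further from liver than the beta chain there as well.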

How the data were processed

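Cy3-labelled RNA of 3 groups was hybridised to 1 Agilent array each. The RNA protocol, per the labels' protocols, is one for blood with globin depletion, and its use on solid tissue is not described there. The deposited scanner files hold the linear intensity of each spot, background-subtracted by the authors' scanner software, and per the file headers that was Feature Extraction 11.0.1.1 on array design 026655 (genome build mm9), whereas version 9.1 of Agilent Feature Extraction stands in the submitters' processing notes. The authors' deposited table holds log2 values of 26049 probes, with a normalization not given in the sources.

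Control spots and outlier spots were left out (283 of 43020 for the SiO2-3TF-3C spleen, 469 for liver and 182 for the SiO2 spleen), spots of a probe were averaged, and 39112 of 39429 probes had a value on all 3 arrays. Log2 intensities were scaled by subtracting each array's 75th percentile. Probes were named by RefSeq accession through a RefSeq table on GRCm38.p6 (69.1% received a name), used for names and gene order, and a gene was read from its brightest probe. A gene was measured on an array where at least 0.5 of its spots were well above background. With 1 side dim, a bound was given, and with both dim, no difference. The lowest signals well above background were -6.20 for the SiO2-3TF-3C spleen, -5.57 for liver and -6.04 for the SiO2 spleen on the scaled log2 axis. The 3 arrays shared a slide and a scan.

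The members and lists were chosen with earlier results of these data known. Named from each list were up to 4 genes with the largest difference between the spleens, genes at least 2-fold lower, and unmeasured genes. Genes nearest to Fgb were named by distance. Some genes that this rule names are not reported here. Lrat, Plrg1, Mcf2l and Pcid2 were named after their values were seen. Alternatives were normexp with an offset of 50 (R 4.3.3, limma 3.58.1), quantile normalization, scaling by 13 housekeeping genes or the median, the deposited table, the mean over probes, 2 filters on dim genes and the other F10 probe. The normexp setting used median spot signals because the files hold no mean signal. Python 3.11.15, pandas 2.3.3 and numpy 2.4.6 were used, and the steps were tested on simulated data.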

Additional observations from a re-analysis of the deposited data

How the results depend on the processing

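No paired analysis was possible because each group has 1 array. Of 74 differences of single genes recomputed per comparison with other processing settings, 73 kept their sign in each comparison, the exception being F10 read as the mean of its probes (0.83 between the spleens, 2.26 for liver over the SiO2 spleen and -1.43 for the SiO2-3TF-3C spleen over liver). On their side of 2-fold stayed 74, 73 and 73, in the same order. Many of the 74 equal the main value by construction, so these counts overstate how far the results were tested. The 2 filters on dim genes left each single-gene value as it was, apart from Fgg. The mean over probes changed only the genes with a pair of probes. A different scaling reference only shifts every gene of a comparison by the same amount. The authors' deposited values, which cover 5 of the genes, gave 3 genes at least 2-fold apart between the spleens, 4 between liver and the SiO2 spleen and 4 between the SiO2-3TF-3C spleen and liver, with median log2 differences of 2.11 for the SiO2-3TF-3C spleen and 5.11 for liver over the SiO2 spleen. The smaller number of genes listed there is part of these counts. With normexp correction, whose offset lifts dim signals, the medians were 4.70 for the SiO2-3TF-3C spleen over the SiO2 spleen, 8.04 for liver over the SiO2 spleen and -2.22 for the SiO2-3TF-3C spleen over liver. By gene, the difference between the spleens fell with normexp from 9.57 to 7.82 for Fgb and from 8.65 to 6.08 for Plg. These changes exceed the technical errors of Fgb and Plg, whereas F7, F9 and F10 moved by less than theirs. The mean over probes gave 6.12 for the SiO2-3TF-3C spleen and 9.48 for liver over the SiO2 spleen. Keeping only genes well above background on all 3 arrays, which leaves out Fgg, gave 9.75 for liver over the SiO2 spleen. Scaling to housekeeping genes gave -2.22 for the SiO2-3TF-3C spleen over liver and moved the median of all genes to 0.03 between the spleens and to 0.18 for the SiO2-3TF-3C spleen over liver. The other F10 probe gave 2.21 between the spleens, 5.14 for liver over the SiO2 spleen and -2.94 for the SiO2-3TF-3C spleen over liver, and 8, 10 and 10 genes past 2-fold. Differences over the SiO2 spleen are limited by how dim that array is for Fga, Fgb, Fgg, F2, Proc and Plg, whereas the differences from liver use bright spots on both sides.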
